A study of Mus musculus with 35 samples.

Results

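The RNA of 6 chemokine receptor genes, Ccr1, Ccr2, Ccr7, Ccrl2, Cx3cr1 and Cxcr4, was followed through bone marrow-derived macrophages (BMDMs). Each gene was taken as the 1 Ensembl identifier, of 47069 in the expression files, whose symbol is the listed name, and all 6 were found. The largest responses were to LPS, which took Cxcr4 from the most abundant of the 6 to no more than 1.15 FPKM and raised Ccr7 and Ccrl2, in wild-type BMDMs and in those labelled AMPKα1-/-. Dex lowered Ccr1, Ccr2 and Cx3cr1 when it was given alone, and lowered Ccr7 and Ccrl2 when it was given with LPS. With LPS it also lowered Ccr1 in wild-type BMDMs (-1.16 on the log2 scale), whereas the difference in the others (-0.36) was not called. The direct test of this effect between the genotypes (0.80) was not called either, so no difference between them is read from this.

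Chemokine receptors are G protein-coupled receptors on the cell surface that read gradients of small secreted proteins, the chemokines, and turn them into directed movement. Ccr1 and Ccr2 answer inflammatory CC chemokines, and Ccr2 is known for bringing monocytes out of the bone marrow and into tissue. Cx3cr1 binds fractalkine and marks resident mononuclear phagocytes. Ccr7 guides mature dendritic cells and lymphocytes to lymph nodes, and Cxcr4 holds leukocytes in the bone marrow through its ligand Cxcl12. Ccrl2 is an atypical receptor that binds chemerin without signalling through G proteins and is known to rise in activated macrophages.

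All BMDMs came from C57BL/6 mice and were differentiated in L929-conditioned medium. The wild-type and AMPKα1-/- cells each received 6 treatments for 24 h, namely vehicle (DMSO), 100 nM of the synthetic glucocorticoid dexamethasone (Dex), 100 ng/ml of the bacterial lipopolysaccharide LPS, LPS + Dex, 1 µg/ml DAMPs, and DAMPs + Dex. The labels name DAMPs without their composition, and the tissue or cell type in which AMPKα1 was deleted is not given there. Every group had 3 libraries except LPS in wild type, where 2 libraries (replicates 2 and 3) entered and replicate 1 was not analysed here, so that there were 17 wild-type libraries and 18 labelled AMPKα1-/-. The methods describe N as data or cultures from individual mice, but no label ties a library to a mouse, so p-values measure only the spread between these libraries.

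Levels are FPKM, fragments scaled to gene length and to the depth of the library. The gene lengths that the values imply match the annotation used here for Ccr1 and Ccr7, but are 3535 against 6760 bases for Ccr2, 1631 against 2598 for Ccrl2, 3443 against 4505 for Cx3cr1 and 1354 against 1808 for Cxcr4, so that levels compare between these genes only to within a factor of up to 1.91. Differences of 1 gene between groups do not depend on its length in this way, apart from the pseudocount. Library totals, worked out from the size of 1 fragment in genes with few of them, were 15837203 to 31955298 fragments (median 19973568). A fragment on a gene of 1 kb was then worth 0.0313 to 0.0631 FPKM. Over all 35 libraries, Ccr1 was read from 9 to 311 fragments, Ccr2 from 20 to 4487, Ccr7 from 0 to 5179, Ccrl2 from 157 to 7885, Cx3cr1 from 29 to 1879 and Cxcr4 from 14 to 11350. Differences between groups were taken on log2(FPKM + 1), on which changes of genes near 0 come out too small. They are given with standard error (SE) and the Benjamini-Hochberg adjusted p of limma, 2-sided, from 1 fit of all 12 groups over 11354 genes with a mean of at least 1 FPKM. A gene is said to rise or fall where that adjusted p was under 0.05. All 6 receptors passed the filter, Ccr7 only through the LPS libraries, since its mean over the 24 libraries without LPS was 0.0270 FPKM.

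The RNA of Prkaa1, which encodes AMPKα1, did not separate the genotypes. With vehicle it was at 15.9, 11.8 and 15.3 FPKM in wild-type BMDMs and at 14.8, 16.5 and 15.4 FPKM in those labelled AMPKα1-/-. Over all treatments, wild-type libraries ran from 8.59 to 26.1 FPKM (median 15.3) and the others from 9.05 to 24.0 FPKM (median 15.1), and limma called Prkaa1 in none of the 6 comparisons of the genotypes (adjusted p from 0.350 to 1). A level over the whole gene cannot check a deletion that leaves most of the transcript, so the second genotype is named here as labelled. The treatments were seen in genes known to answer them. Fkbp5, a classical glucocorticoid target, was at 1.91 ± 0.315 FPKM (SD, n = 3) with vehicle and 341 ± 17.6 FPKM (SD, n = 3) with Dex in wild-type BMDMs. The cytokine gene Il6 was at 0.0977 ± 0.0573 FPKM (SD, n = 3) with vehicle and 507 ± 24.4 FPKM (SD, n = 2) with LPS.

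The cells carried the RNA of macrophages. All 8 macrophage markers had a mean of at least 1 FPKM, led by Lyz2 (lysozyme) at 24097 FPKM, with Adgre1, which encodes F4/80, at 1287 FPKM. These markers moved with the treatments too. With LPS 3 were higher and 4 lower than with vehicle in each genotype, and with Dex 1 was higher and 3 lower. Their sum had a median of 18720.4 FPKM in the 5 LPS libraries and 28741 FPKM in the other 30, with overlapping ranges. This lower sum was that of Lyz2. Its group mean was 19655 FPKM with vehicle and 12857 FPKM with LPS in wild-type BMDMs. In those labelled AMPKα1-/- it was 24267.5 and 16133 FPKM. The other macrophage markers together were higher with LPS, at 4379 against 3504 FPKM and at 5472 against 3276 FPKM. None of the 9 dendritic cell markers reached a mean of 1 FPKM. The highest of them was Ly75 at 0.649 FPKM, and Cd209a was at 0 in all libraries. The summed dendritic cell markers were higher in the 5 LPS libraries (3.97 to 7.36 FPKM, median 6.24) than in the other 30 (0.492 to 1.70 FPKM, median 0.979). In bulk RNA, a change in the share of cells that carry a receptor and a change of its RNA per cell cannot be told apart.

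Ccr1, Ccr2, Cx3cr1 and Ccrl2 lie on chromosome 9 in the GRCm38 build. Ccr1 (ENSMUSG00000025804, 9:123962124-123968692, minus strand) and Ccr2 (ENSMUSG00000049103, 9:124101950-124113557, plus strand) belong to a cluster that also holds Ccr3, Ccr9, Cxcr6 and Xcr1. Ccrl2 (ENSMUSG00000043953) is at 9:111054486-111057519 and Cx3cr1 (ENSMUSG00000052336) at 9:119901616-120069879, both on the minus strand. Ccr7 (ENSMUSG00000037944) is at 11:99144196-99155077 and Cxcr4 (ENSMUSG00000045382) at 1:128588199-128592293, both on the minus strand. Of the 4505 exonic bases annotated to Cx3cr1, 78 (1.73%) also lie in exons of 1 other gene, Gm33858 on the opposite strand, and the strand setting of the counting is not given in the sources used here. Of the stretches of 50 bases in the exons of Ccr2, 1.91% also occur in other transcripts, against 1.06% for Cx3cr1 and 0 for the other receptors.

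The 250 bases before the RefSeq start are shown for Ccrl2 (the farthest upstream of 3 starts), which rose with LPS, and for Cxcr4, which fell, since theirs were the only windows with a match to a motif searched. The Ccrl2 stretch is chr9:111057519-111057768 and the Cxcr4 stretch chr1:128592300-128592549, both of GRCm38.p6 and read 5′ to 3′ on the minus strand. Capitals mark a match to the NF-κB consensus in Ccrl2 and to TATAAA, on both strands and overlapping, in Cxcr4.
Ccrl2: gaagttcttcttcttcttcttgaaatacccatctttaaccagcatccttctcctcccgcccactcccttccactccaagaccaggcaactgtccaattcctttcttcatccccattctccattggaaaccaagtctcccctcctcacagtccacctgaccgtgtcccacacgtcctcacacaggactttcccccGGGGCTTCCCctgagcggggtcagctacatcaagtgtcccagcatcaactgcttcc
Cxcr4: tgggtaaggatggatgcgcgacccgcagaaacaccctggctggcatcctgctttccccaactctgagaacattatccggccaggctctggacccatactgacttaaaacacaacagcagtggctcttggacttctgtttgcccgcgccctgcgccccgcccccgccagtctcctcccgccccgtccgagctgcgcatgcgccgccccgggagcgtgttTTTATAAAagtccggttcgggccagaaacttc
RefSeq windows of 5 of the 6 receptors were in the table used. The NF-κB consensus, the factor that LPS is known to activate, was matched in this window of Ccrl2 from 56 to 47 bases before the start, in neither window of its other starts, and in none of the windows of Ccr1, Ccr2, Cx3cr1 and Cxcr4. Over 32851 windows of the same length, 3.90% held it on either strand. GNACANNNTGTNC, the palindromic element of the glucocorticoid receptor, was in 0.387% of all windows, GAAANNGAAA, the interferon-stimulated response element, in 2.98%, and TGANTCA, the AP-1 element, in 6.75%, and none of these 3 was matched in the windows of the 5 receptors. TATAAA was in 12.4% of all windows and, of these receptors, in Cxcr4 alone.

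**Figure D1:**
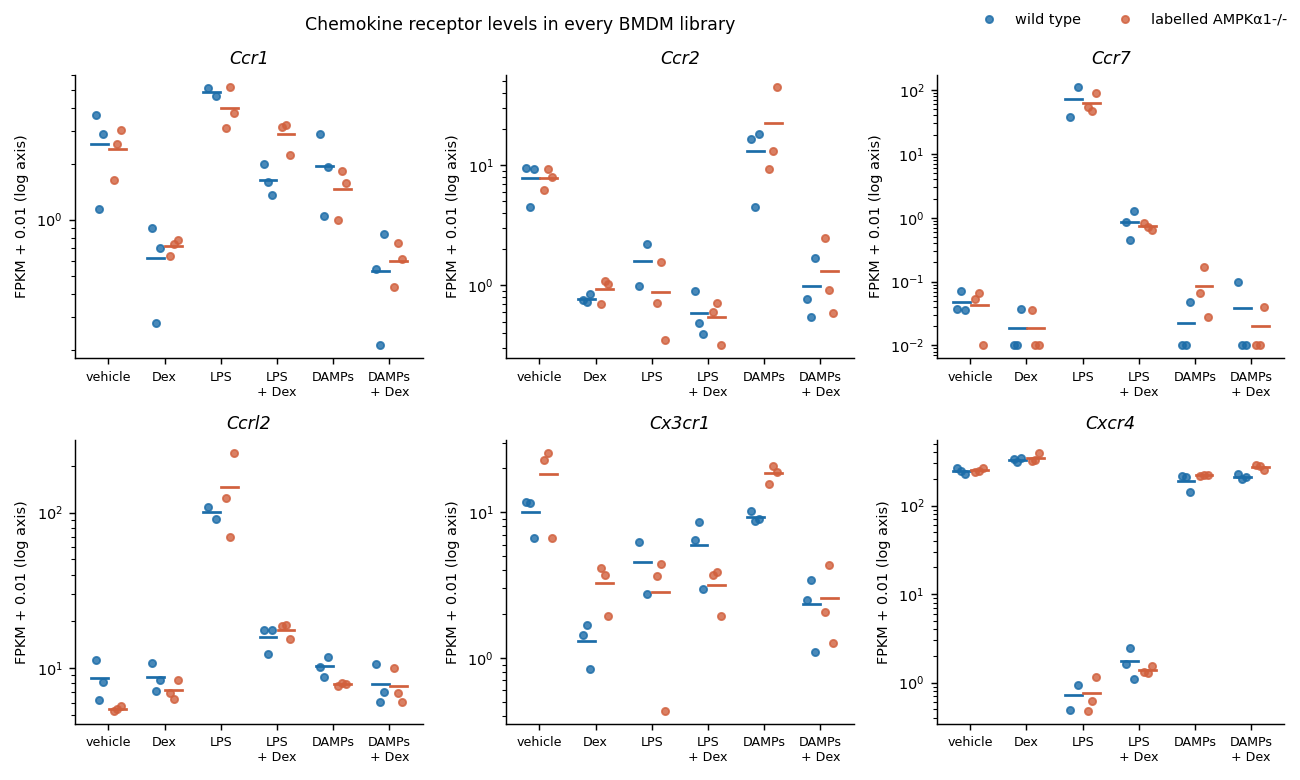
FPKM of the 6 receptor genes in each of the 35 libraries, plotted as FPKM + 0.01 on a log axis for each treatment, wild type in blue and libraries labelled AMPKα1-/- in orange, with bars at the group means. Cxcr4 lies between 142 and 395 FPKM in all libraries without LPS and at no more than 2.45 FPKM with it, whereas Ccr7 is at 37.5 FPKM or above with LPS alone and at no more than 1.28 FPKM in the other treatments.

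Ccr1, a receptor for Ccl3, Ccl5 and related chemokines, was weakly expressed and lowered by Dex, and its difference between LPS and vehicle lay close to the threshold in both genotypes. With vehicle it was at 3.63, 1.14 and 2.86 FPKM in wild-type BMDMs and 1.63, 2.55 and 3.02 FPKM in those labelled AMPKα1-/-. With Dex it was at 0.886, 0.267 and 0.692 FPKM and at 0.624, 0.733 and 0.765 FPKM. Every Dex library was thus below every vehicle library of its genotype, and Ccr1 fell in both, by 1.08 (SE 0.25, adjusted p = 0.00134) and by 0.97 (SE 0.25, adjusted p = 0.00349) on the log2 scale. With LPS it was at 5.07 and 4.61 FPKM in wild-type and at 3.10, 5.12 and 3.71 FPKM in AMPKα1-/- BMDMs, above all vehicle libraries of the same genotype. The wild-type rise was 0.79 (SE 0.27, adjusted p = 0.0157), and it missed the threshold without vehicle replicate 2 (0.46, adjusted p = 0.143), without LPS replicate 2 (adjusted p = 0.0906) or without LPS replicate 3 (adjusted p = 0.0507), with a pseudocount of 0.1 (adjusted p = 0.0611) or with only the groups compared (adjusted p = 0.0757). In AMPKα1-/- BMDMs the difference was 0.55 (SE 0.25, adjusted p = 0.0504), and it passed the threshold without vehicle replicate 3 (0.69, adjusted p = 0.0334) or LPS replicate 1 (0.68, adjusted p = 0.0345), and when any of 8 libraries of other groups was left out (adjusted p from 0.0263 to 0.0493), wild-type vehicle replicates 1 and 2, Dex replicate 2, DAMPs replicates 1 and 2 and DAMPs + Dex replicates 2 and 3, and AMPKα1-/- DAMPs replicate 1. It also passed with quantile normalization (0.99, adjusted p = 0.000222) and with the replicate number as a block (0.55, adjusted p = 0.0108). With LPS + Dex the level was 1.97, 1.57 and 1.34 FPKM in wild-type BMDMs, a fall of 1.16 from LPS (SE 0.27, adjusted p = 0.00142). In those labelled AMPKα1-/- it was 3.13, 3.23 and 2.22 FPKM, overlapping the LPS libraries (-0.36, adjusted p = 0.275). Against vehicle, LPS + Dex differed by -0.37 in wild-type BMDMs (adjusted p = 0.215, but -0.69 and 0.0175 without vehicle replicate 2) and by 0.20 in the others (adjusted p = 0.507, but 0.64 and 0.0133 with quantile normalization). With DAMPs it was at 2.88, 1.03 and 1.90 FPKM and at 0.979, 1.81 and 1.56 FPKM, and with DAMPs + Dex at 0.535, 0.200 and 0.829 FPKM and at 0.422, 0.736 and 0.603 FPKM. Dex lowered it below DAMPs in wild-type BMDMs (-0.92, SE 0.25, adjusted p = 0.00568, but 0.0579 without DAMPs replicate 1 and 0.0586 with only the groups compared), whereas the difference in the others was -0.62 (adjusted p = 0.0669, but 0.0459 without their DAMPs replicate 1 and 0.0352 without wild-type vehicle replicate 2, 0.0437 with a pseudocount of 0.1 and 0.0255 with centring on one median).

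Ccr2, the receptor for Ccl2, fell with Dex, with LPS and with both together. With vehicle it was at 9.49, 4.46 and 9.29 FPKM in wild-type BMDMs and at 6.15, 9.21 and 7.92 FPKM in those labelled AMPKα1-/-. With Dex it was at 0.745, 0.717 and 0.838 FPKM and at 0.685, 1.07 and 1.01 FPKM. The group means were thus 10.1-fold and 8.42-fold lower with Dex, and no Dex library reached a vehicle library (-2.25, SE 0.43, adjusted p = 2.00e-04, and -2.18, SE 0.43, adjusted p = 0.000283). LPS left 0.971 and 2.197 FPKM in wild-type BMDMs (-1.74, SE 0.48, adjusted p = 0.00287) and 0.708, 1.56 and 0.341 FPKM in the others (-2.27, SE 0.43, adjusted p = 4.25e-05). Without LPS replicate 2 the wild-type fall was 1.39 and missed the threshold (adjusted p = 0.0619). LPS + Dex gave 0.884, 0.476 and 0.383 FPKM and 0.593, 0.708 and 0.306 FPKM, which differed from LPS by -0.68 (adjusted p = 0.298) and -0.24 (adjusted p = 0.711), although no wild-type library overlapped. Against vehicle, the differences were -2.42 (SE 0.43, adjusted p = 2.50e-05) and -2.51 (SE 0.43, adjusted p = 1.41e-05). The libraries spread most with DAMPs, where Ccr2 was at 16.3, 4.51 and 18.0 FPKM in wild-type and 9.33, 12.96 and 44.2 FPKM in AMPKα1-/- BMDMs. The differences from vehicle were 0.54 (adjusted p = 0.917) and 1.11 (adjusted p = 0.187). With DAMPs + Dex Ccr2 was at 0.759, 0.535 and 1.66 FPKM and at 2.46, 0.911 and 0.583 FPKM, below all DAMPs libraries of the genotype (-2.66, SE 0.43, adjusted p = 2.18e-05, and -3.09, SE 0.43, adjusted p = 2.39e-06). The group means were 13.1-fold and 16.8-fold lower than with DAMPs, but single libraries moved these folds. The wild-type fold was 20.0 without DAMPs + Dex replicate 3, and that of the others was 8.46 without DAMPs replicate 3 and 29.7 without DAMPs + Dex replicate 1.

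Cx3cr1, the fractalkine receptor, fell with Dex alone but not with Dex on top of LPS. With vehicle it was at 11.7, 11.6 and 6.67 FPKM in wild-type BMDMs and at 22.7, 25.6 and 6.69 FPKM in those labelled AMPKα1-/-, where replicate 3 stood well below the others. With Dex it was at 1.42, 1.66 and 0.830 FPKM and at 4.12, 3.71 and 1.94 FPKM. All Dex libraries lay below all vehicle libraries of the genotype, with falls of 2.23 (SE 0.46, adjusted p = 0.000434) and 2.03 (SE 0.46, adjusted p = 0.00115). LPS gave 6.28 and 2.74 FPKM in wild-type BMDMs, a difference of -1.04 that missed the threshold (SE 0.51, adjusted p = 0.0860). That difference passed with only the groups compared in the fit (adjusted p = 0.0367) and with the replicate number as a block (-0.96, adjusted p = 0.0117). In BMDMs labelled AMPKα1-/- LPS gave 3.63, 4.42 and 0.424 FPKM, which was lower than with vehicle (-2.36, SE 0.46, adjusted p = 5.63e-05). The test of the difference between the genotypes gave -1.33 (95% CI from -2.73 to 0.08, adjusted p = 0.947). With LPS + Dex it was at 6.40, 8.60 and 2.98 FPKM and at 3.68, 3.87 and 1.92 FPKM, 0.33 (95% CI from -0.71 to 1.37) and 0.30 (95% CI from -0.64 to 1.23) from LPS. Against vehicle, the difference was -0.71 in wild-type BMDMs (adjusted p = 0.195, but 0.0322 with the replicate number as a block). The fall in the others was 2.06 (SE 0.46, adjusted p = 0.000345). DAMPs libraries held 10.2, 8.76 and 8.91 FPKM and 15.7, 20.7 and 19.0 FPKM. With DAMPs + Dex the level was 2.49, 3.42 and 1.09 FPKM and 2.06, 4.35 and 1.25 FPKM, falls of 1.69 (SE 0.46, adjusted p = 0.00621) and 2.54 (SE 0.46, adjusted p = 9.58e-05) from DAMPs.

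Ccr7 was close to absent except with LPS. In the 24 libraries without LPS it was read from 0 to 8 fragments and was at 0 in 11 of them, with a highest value of 0.157 FPKM (DAMPs, AMPKα1-/-, replicate 2). The vehicle libraries held 0.0275, 0.0602 and 0.0253 FPKM in wild-type BMDMs and 0.0431, 0.0552 and 0 FPKM in the others. With LPS it was at 37.5 and 109.9 FPKM in wild-type BMDMs, from 1577 and 5179 fragments, and at 54.8, 47.8 and 88.9 FPKM in those labelled AMPKα1-/-. The rise over vehicle was 5.98 (SE 0.26, adjusted p = 3.79e-17) and 5.92 (SE 0.23, adjusted p = 2.63e-18). Ccr7 passed the filter only through the LPS libraries, and its spread was pooled over all 12 groups, most of them near 0. These SE and adjusted p-values thus do not measure the spread between the LPS libraries. The same holds for the differences of LPS + Dex from LPS. No fold is given on the linear scale, since the vehicle libraries held at most 2 fragments. With LPS + Dex Ccr7 was at 0.861, 0.439 and 1.28 FPKM, from 48, 16 and 58 fragments, and at 0.815, 0.715 and 0.630 FPKM. Dex thus left a level 85.7-fold (43.6-fold without LPS replicate 3) and 88.6-fold below LPS (-5.16, SE 0.26, adjusted p = 2.86e-15, and -5.19, SE 0.23, adjusted p = 2.04e-16). All LPS + Dex libraries were still above all vehicle libraries, by 0.82 (SE 0.23, adjusted p = 0.00364) and 0.73 (SE 0.23, adjusted p = 0.00759). The summed dendritic cell markers given above moved in the same direction, from 6.24 to 6.65 FPKM with LPS to 0.868 to 1.08 FPKM with LPS + Dex in wild-type BMDMs, most of it in Ly75 (mean 4.02 FPKM with LPS and 0.354 FPKM with LPS + Dex), while the other 8 together went from 2.42 to 0.587 FPKM. Their part in the level of Ccr7 was not tested.

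Cxcr4 was the most abundant of the 6 receptors without LPS and fell furthest with it. With vehicle it was at 263, 248 and 224 FPKM in wild-type BMDMs and 242, 248 and 262 FPKM in those labelled AMPKα1-/-. With LPS it was at 0.486 and 0.930 FPKM and at 0.470, 0.612 and 1.15 FPKM. The wild-type values rest on 14 and 30 fragments. The group means were 346-fold and 337-fold lower, and the differences were -7.18 (SE 0.17, adjusted p = 1.77e-22) and -7.19 (SE 0.15, adjusted p = 9.19e-24). With LPS + Dex Cxcr4 was at 1.63, 2.45 and 1.10 FPKM and at 1.31, 1.29 and 1.52 FPKM. These were above the LPS libraries of the genotype, by 0.65 (SE 0.17, adjusted p = 0.00379) and 0.46 (SE 0.15, adjusted p = 0.0191), yet 142-fold and 183-fold below vehicle. The small rise was lost without LPS replicate 2 in wild-type BMDMs (adjusted p = 0.127), and in the others without LPS replicate 1 (0.120), LPS replicate 2 (0.0681) or LPS + Dex replicate 3 (0.0671). It was also lost with only the groups compared (adjusted p = 0.167 and 0.106) and, in AMPKα1-/- BMDMs, with quantile normalization (0.0596). Dex alone gave 331, 310.1 and 341 FPKM and 315, 329.5 and 395 FPKM, above all vehicle libraries, with rises of 0.42 (SE 0.15, adjusted p = 0.0407) and 0.46 (SE 0.15, adjusted p = 0.0266). These calls were close to the threshold. In wild-type BMDMs they were lost without vehicle replicate 2 or 3 or any of the Dex replicates (adjusted p from 0.0639 to 0.129), and in the others without vehicle replicate 1 or 2 or Dex replicate 3 (adjusted p from 0.0693 to 0.127). Both were lost without a filter on low values (adjusted p = 0.0756 and 0.0535). The wild-type call was also lost with centring on one median (adjusted p = 0.103). The other was lost with rescaling without the most abundant gene (adjusted p = 0.0935). DAMPs gave 213, 209 and 142 FPKM and 214, 219 and 224 FPKM (-0.40, adjusted p = 0.275, and -0.19, adjusted p = 0.706). With DAMPs + Dex it was at 229, 197 and 208 FPKM and at 287, 282 and 249.8 FPKM, which differed from DAMPs by 0.19 (adjusted p = 0.430) and 0.32 (adjusted p = 0.145).

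Ccrl2, the chemerin-binding receptor, rose with LPS, and Dex took most of the rise away. With vehicle it was at 11.3, 6.24 and 8.17 FPKM in wild-type BMDMs and 5.31, 5.42 and 5.67 FPKM in those labelled AMPKα1-/-. With LPS it was at 109 and 91.6 FPKM and at 125, 70.3 and 243 FPKM, group means 11.7-fold and 26.7-fold over vehicle (3.43, SE 0.31, adjusted p = 2.00e-10, and 4.33, SE 0.27, adjusted p = 1.26e-13). The rises of the 2 genotypes differed by 0.89 (95% CI from 0.05 to 1.74), with an adjusted p of 0.947. With LPS + Dex Ccrl2 was at 17.6, 12.3 and 17.6 FPKM and at 18.6, 18.9 and 15.3 FPKM. These were 6.35-fold and 8.29-fold below LPS (-2.60, SE 0.31, adjusted p = 9.67e-08, and -2.81, SE 0.27, adjusted p = 2.37e-09). They stayed above vehicle, by 0.83 (SE 0.27, adjusted p = 0.0122, but 0.0755 without vehicle replicate 2) and 1.52 (SE 0.27, adjusted p = 3.01e-05). With Dex alone it was at 10.8, 7.15 and 8.40 FPKM and at 6.87, 6.33 and 8.34 FPKM, which differed from vehicle by 0.05 (95% CI from -0.52 to 0.61) and 0.33 (95% CI from -0.23 to 0.89). DAMPs libraries held 10.2, 8.74 and 11.9 FPKM and 7.68, 8.05 and 7.92 FPKM, and DAMPs + Dex libraries 10.7, 6.07 and 7.06 FPKM and 10.1, 6.89 and 6.03 FPKM.

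The order of the receptors by mean FPKM changed with the treatment. With vehicle, Cxcr4 led in both genotypes, Ccr7 came last and Ccr1 stood next to last. The order of these means held with the annotated gene lengths, a recalculation chosen after the values were seen. With those lengths, however, Ccr1 overlapped Ccr2 in wild-type BMDMs (3.63 FPKM in replicate 1 against 2.33 FPKM in replicate 2). The places of Ccr2, Ccrl2 and Cx3cr1 between Cxcr4 and Ccr1 are not ranked, since the libraries of these 3 overlapped in wild-type BMDMs and the lengths implied for them differ from the annotation. With LPS, Ccrl2 and Ccr7 led in both genotypes, followed by Ccr1 and Cx3cr1, with Ccr2 and Cxcr4 last. Ccrl2 stood before Ccr7 by the values as deposited, but after it in wild-type BMDMs with the annotated lengths, and Ccr2 and Cxcr4 changed places in those labelled AMPKα1-/-. The libraries of Ccrl2 and Ccr7, and those of Ccr1 and Cx3cr1, overlapped in both genotypes, and those of Ccr2 and Cxcr4 in BMDMs labelled AMPKα1-/-. In the latter, Cx3cr1 also overlapped Ccr2 and Cxcr4, since its replicate 3 (0.424 FPKM) lay below every Cxcr4 library. The place of Cx3cr1 before these receptors is thus not clear there. With the annotated lengths, Ccr2 and Cxcr4 overlapped in wild-type BMDMs as well. With LPS + Dex Ccrl2 led and Ccr2 came last in both genotypes by either length. All Ccrl2 libraries lay above those of the other receptors there. Those of Ccr2 and Ccr7 overlapped in both genotypes by the values as deposited, and in wild-type BMDMs with the annotated lengths too.

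**Figure D2:**
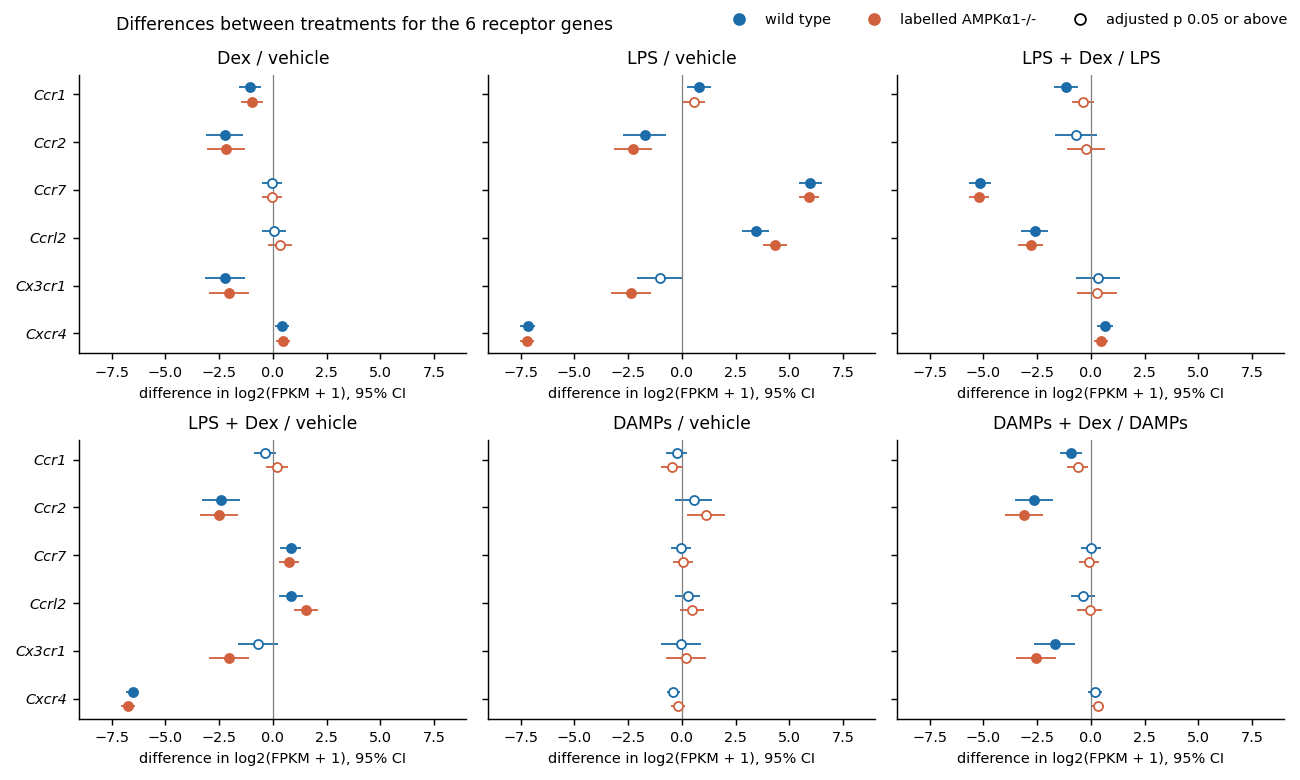
Differences in log2(FPKM + 1) between treatments for the 6 receptors, as points with 95% confidence intervals, wild type in blue and libraries labelled AMPKα1-/- in orange. Filled points have a limma adjusted p under 0.05. LPS separates Cxcr4 (-7.18 and -7.19) from Ccr7 (5.98 and 5.92), and DAMPs leave all 6 receptors with open points.

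Counted over the 6 receptors, Dex against vehicle called 4 in wild-type BMDMs, Cxcr4 higher and Ccr1, Ccr2 and Cx3cr1 lower, where 30.9% of all 11354 genes were called. The same 4 were called in those labelled AMPKα1-/- (27.9% of all genes). LPS against vehicle called 5 in wild-type BMDMs (55.7% of all genes), 3 higher and 2 lower, and 5 in the others (64.3%), 2 higher and 3 lower. Most genes were called in that comparison, so that the count of receptors says little beyond it. Ccr7, which passed the filter only through the LPS libraries, is in both counts and in those of LPS + Dex below. The values for Ccr7, Ccrl2 and Cxcr4 given above compare with a median of all genes of -0.19 in wild-type and -0.30 in AMPKα1-/- BMDMs. These comparisons share their vehicle or LPS libraries. Relative to that shift, set by centring all libraries on one median, the LPS rise of Ccr1 was 0.94 and 0.83 (adjusted p = 0.00199 in AMPKα1-/- BMDMs). The wild-type rise missed the threshold under other settings given above. LPS + Dex against LPS called 4 in wild-type BMDMs (34.1% of all genes) and 3 in the others (37.7%). Against vehicle, LPS + Dex called 4 (54.2%) and 5 (57.4%), with a median of all genes of -0.23 and -0.28. DAMPs + Dex against DAMPs called 3 (24.3%) and 2 (25.3%), all of them lower. The median difference of the receptors was -0.56 with Dex, -0.12 with LPS and -0.92 with LPS + Dex against LPS in wild-type BMDMs, beside 0.05, -0.19 and -0.03 over all genes. In those labelled AMPKα1-/- it was -0.50, -0.86 and -0.30, beside -0.05, -0.30 and 0.01.

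DAMPs called none of the 6 receptors in limma in either genotype. At an unadjusted p under 0.05, there was 1 in wild-type BMDMs (Cxcr4) and 1 in those labelled AMPKα1-/- (Ccr2). Of all 11354 genes, 1099 and 1509 were under that unadjusted value, so that these counts of receptors say little. The comparison called few genes anywhere, 2.01% in wild-type BMDMs and 4.13% in the others.

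Whether Dex acted alike with and without LPS was tested as the difference of its effects. It was past the threshold for 3 of the 6 receptors in wild-type BMDMs (32.0% of all genes) and for 4 in those labelled AMPKα1-/- (28.4%). Ccr7 is in both counts, although its near absence without LPS set its value, so the counts are not read against these shares. For Ccr7 the Dex effect with LPS minus that without was -5.12 (SE 0.34, adjusted p = 6.73e-12) and -5.15 (SE 0.32, adjusted p = 1.73e-12), and for Ccrl2 it was -2.65 (SE 0.41, adjusted p = 1.47e-05) and -3.14 (SE 0.39, adjusted p = 4.49e-07). Without LPS the RNA of Ccr7 was at 0 to 8 fragments, so that no fall with Dex could appear there, and the value for Ccr7 restates its fall from LPS. For Cx3cr1 the effect was higher with LPS, by 2.56 (SE 0.68, adjusted p = 0.00508) and 2.33 (SE 0.64, adjusted p = 0.00680), and the level with LPS alone set a difference of at least -0.15 and 0.31. Ccr2 had the same direction, by 1.57 (SE 0.64, adjusted p = 0.0624) and 1.94 (SE 0.60, adjusted p = 0.0159). In wild-type BMDMs its value passed the threshold without vehicle replicate 2 (1.88, adjusted p = 0.0370), without wild-type DAMPs replicate 2 (adjusted p = 0.0338), and without DAMPs replicate 1 (0.0473) or 3 (0.0266) of the other genotype. It also passed with only the groups compared (adjusted p = 0.0154) and with all libraries centred on one median (1.73, adjusted p = 0.0311). The level of Ccr2 with LPS left little room for a further fall on the log2(FPKM + 1) scale, at a mean of 1.33 and 0.85, so that differences of at least 0.92 and 1.33 were set by that level alone. The mean of Ccr2 was 1.58 FPKM with LPS and 0.767 FPKM with Dex in wild-type BMDMs, and 0.869 and 0.921 FPKM in the others. For Ccr1 the difference was -0.08 (95% CI from -0.83 to 0.68) and 0.61 (95% CI from -0.10 to 1.33), and for Cxcr4 it was 0.24 (95% CI from -0.24 to 0.71) and 0.00 (95% CI from -0.45 to 0.45).

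**Figure D3:**
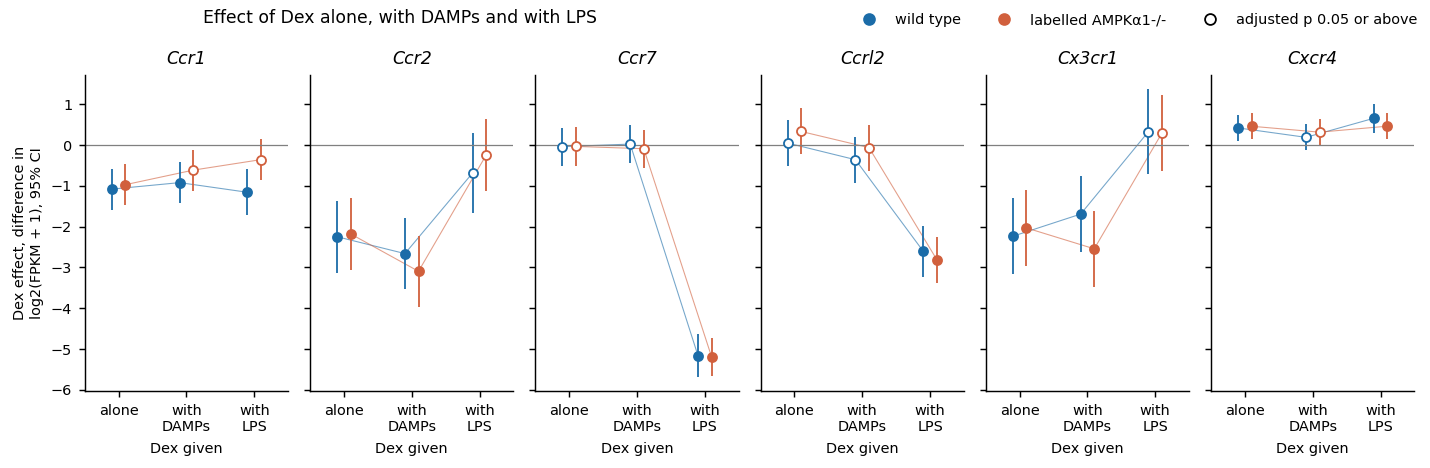
Effect of Dex on each receptor, as the difference in log2(FPKM + 1) with its 95% confidence interval, when Dex was given alone, with DAMPs or with LPS, wild type in blue and libraries labelled AMPKα1-/- in orange, filled where the limma adjusted p was under 0.05. For Ccr2 and Cx3cr1 the points are filled and below 0 alone and with DAMPs and open with LPS, while for Ccr7 and Ccrl2 they are filled with LPS only.

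Between the genotypes, limma called none of the 6 receptors in any treatment in the fit of all 12 groups. The share of all genes called was 0.432% with vehicle, 0.766% with LPS, 0.669% with LPS + Dex, 0.731% with DAMPs and 1.06% with DAMPs + Dex, but 26.5% with Dex. At an unadjusted p under 0.05, there was 1 receptor with LPS + Dex, Ccr1 at 0.55 (95% CI from 0.05 to 1.05), and 1 with DAMPs + Dex, Cxcr4 at 0.37 (95% CI from 0.05 to 0.68), and 0 in the other 4 treatments. Of all 11354 genes, 921 were under that unadjusted value with LPS + Dex and 1067 with DAMPs + Dex. In the other treatments it was 700 genes with vehicle, 4783 with Dex, 1300 with LPS and 860 with DAMPs. The intervals leave room for sizeable differences in the more variable receptors. For Cx3cr1 the difference was 0.66 with vehicle (95% CI from -0.27 to 1.59), 0.86 with Dex (from -0.07 to 1.80) and 0.91 with DAMPs (from -0.02 to 1.85). The one with Dex was called by limma with only the groups compared (adjusted p = 0.0345). For Cxcr4 with vehicle the difference was 0.03 (from -0.28 to 0.35). The 5 tests of whether the effects of Dex, LPS, DAMPs, Dex on LPS or Dex on DAMPs differed between the genotypes called 0 receptors and 0% of all genes. At an unadjusted p under 0.05, they gave 1 receptor for LPS (Ccrl2, 0.89) and 1 for Dex on LPS (Ccr1, 0.80, 95% CI from 0.05 to 1.56). Of all 11354 genes, 514 and 311 were under that unadjusted value in these tests. For Dex, DAMPs and Dex on DAMPs it was 2441, 66 and 234 genes, with 0 receptors in each.

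**Figure D4:**
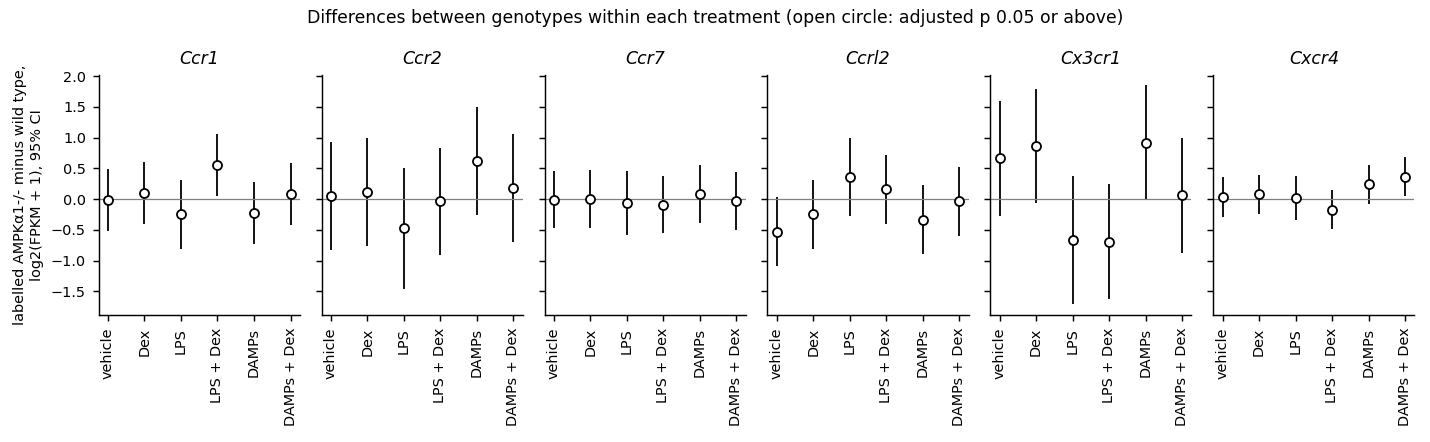
Difference in log2(FPKM + 1) of libraries labelled AMPKα1-/- minus wild type for each receptor and treatment, with 95% confidence intervals. All points are open, meaning a limma adjusted p of 0.05 or above, and the intervals are widest for Ccr2 and Cx3cr1.

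Of the 15 ligands of these receptors, 11 passed the filter. The Ccr7 ligands Ccl19 and Ccl21a were at 0 in all 35 libraries, and the Cxcr4 ligand Cxcl12 and chemerin (Rarres2) had means of 0.0667 and 0.0391 FPKM. LPS raised 9 of the 11 and lowered 1 in wild-type BMDMs, and raised 8 and lowered 1 in those labelled AMPKα1-/-, with medians of 4.42 and 3.53. These were 90.9% and 81.8% of the tested ligands, against 55.7% and 64.3% of all genes. Ccl5, Ccl3 and Ccl2 rose most, by 8.15, 6.09 and 5.96 in wild-type and by 8.27, 6.88 and 6.32 in AMPKα1-/- BMDMs. Ccl2, the main Ccr2 ligand, went from 4.71 ± 1.01 FPKM (SD, n = 3) with vehicle to 352 ± 40.5 FPKM (SD, n = 2) with LPS in wild-type BMDMs, while Ccr2 itself fell. With LPS + Dex 8 of the 11 were lower than with LPS and none higher in either genotype (72.7% of the list, against 34.1% and 37.7% of all genes), with Ccl2, Ccl7 and Ccl4 falling most (-7.33, -6.34 and -5.73 in wild-type and -7.24, -5.74 and -5.68 in AMPKα1-/- BMDMs). Dex alone called 18.2% of the tested ligands in wild-type BMDMs and 27.3% in the others, against 30.9% and 27.9% of all genes. It lowered 2 in wild-type BMDMs, Ccl4 (-2.05) and Mif (-1.15), a ligand of Cxcr4. In the others it lowered Ccl4 (-1.80) and Ccl2 (-1.16) and raised Ccl6 (1.30).

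**Figure D5:**
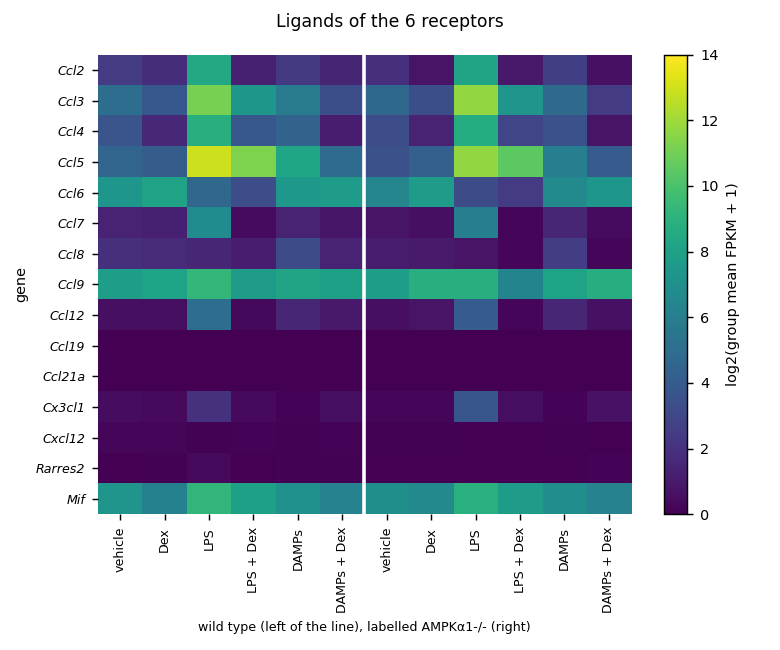
Heat map of log2(group mean FPKM + 1) for the 15 ligands of the receptors in the 12 groups, wild type to the left and AMPKα1-/- to the right of the white line. Ccl2, Ccl3, Ccl4, Ccl5 and Ccl7 have their brightest cells with LPS, and Ccl19 and Ccl21a are at 0 throughout.

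Among other chemokine and chemerin receptors, 2 that passed the filter are described, and they do not stand for the list. Cmklr1, the signalling receptor for chemerin, rose with Dex by 1.07 and 0.71, and with DAMPs + Dex against DAMPs by 0.69 and 0.92. With Dex it went from 75.6 ± 15.2 to 158 ± 6.66 FPKM (SD, n = 3) in wild-type BMDMs. With LPS it differed from vehicle by 0.30 in these (adjusted p = 0.245) and rose by 0.61 in the others (adjusted p = 0.00740). Cxcr3, a receptor for interferon-induced chemokines, was weak at 1.98 ± 0.563 FPKM (SD, n = 3) with vehicle in wild-type BMDMs and fell with LPS by 1.51 and 1.59. It also fell with Dex in wild-type BMDMs (-0.64, adjusted p = 0.00405, against -0.26, adjusted p = 0.250 in the others), and with DAMPs + Dex against DAMPs in both genotypes (-1.06 and -0.74). With DAMPs it rose by 0.69 in wild-type BMDMs (adjusted p = 0.0247) and differed by 0.52 in the others (adjusted p = 0.0753).

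Of 33 genes of receptor signalling and desensitisation, 31 passed the filter. LPS raised 7 and lowered 14 in wild-type BMDMs, and raised 7 and lowered 16 in those labelled AMPKα1-/-, 67.7% and 74.2% of the list against 55.7% and 64.3% of all genes. Rgs2, a regulator that shortens G protein signalling, fell most (-5.55 and -5.44), from 234 ± 10.3 FPKM (SD, n = 3) with vehicle to 4.05 ± 0.625 FPKM (SD, n = 2) in wild-type BMDMs. It was followed by Gng2, a G protein γ subunit (-2.88 and -2.54), and by Rgs10, another such regulator (-2.71 and -2.62). LPS + Dex against LPS raised 6 and lowered 2 in wild-type BMDMs (25.8% of the list, 34.1% of all genes), with the largest differences in Rgs2 (3.48) and Rgs1 (-2.05). In the others it raised 6 and lowered 4 (32.3% against 37.7%), led by Rgs2 (2.90), Rgs1 (-2.37) and Gng2 (1.37). Dex alone raised 3 and lowered 8 in wild-type BMDMs (35.5% against 30.9%), led by Rgs1 (-1.31), Rgs2 (-1.29) and the GTPase gene Rac2 (-1.13), and raised 2 and lowered 11 in the others (41.9% against 27.9%), led by Rgs1 (-1.94), Rgs2 (-1.41) and the phospholipase gene Plcb2 (-1.16).

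Over the 12 group means of log2(FPKM + 1), the receptors fell into patterns that are described here by Pearson's r with no test, since all points come from the same 35 libraries and the treatments are shared by all genes. Ccr7 and Ccrl2 went together (r = 0.98), as did Ccr2 and Cx3cr1 (r = 0.89), while Ccrl2 and Cxcr4 ran against each other (r = -0.84). The genes most like each receptor over the same 12 means were Lcp1 and Slc25a25 for Ccr1 (both r = 0.97), Ciita for Ccr2 (0.98), Lad1 and Ccl22 for Ccr7 (both 1.00), Cd247 and Npy for Ccrl2 (both 0.99), Efhd2 and H2-DMa for Cx3cr1 (both 0.94), and Slc9a9 and Csnk1e for Cxcr4 (both 1.00).

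Markers of other cells moved with the treatments as well. Of the B cell markers, Ighm alone had a mean of at least 1 FPKM, and the summed list ran from 68.2 to 74.6 FPKM with vehicle and from 11.5 to 16.1 FPKM with Dex in wild-type BMDMs, next to the falls of Ccr2 and Cx3cr1. With LPS the sum was lower still, at 3.51 to 4.47 FPKM in wild-type BMDMs and 1.26 to 2.76 FPKM in those labelled AMPKα1-/- (61.6 to 75.5 FPKM with vehicle), next to the lower Ccr2. Ighm itself went from 70.7 to 1.70 FPKM and from 65.5 to 0.888 FPKM, whereas the other 5 markers together were at 1.40 and 2.29 FPKM and at 0.762 and 0.958 FPKM. Over all libraries Cd79b had a mean of 0.978 FPKM, Cd79a of 0.290 FPKM, and Ms4a1 and Pax5 of 0.00487 and 0.00640 FPKM. The monocyte markers, of which 5 of 6 had such a mean, led by F13a1, went in sum from 101 to 129 FPKM with vehicle to 453 to 501 FPKM with Dex in wild-type BMDMs, nearly all of it F13a1, while Ccr2 fell. With LPS the sum was at 22.9 to 43.7 FPKM, below vehicle as Ccr2 was, with F13a1 at 2.49 against 106 FPKM and the other 5 markers together at 30.8 against 4.71 FPKM. In BMDMs labelled AMPKα1-/- F13a1 went from 90.1 to 1.71 FPKM and the others from 7.95 to 52.9 FPKM. Of the neutrophil and granulocyte markers, 4 of 9 had such a mean, and their sum of 96.7 to 133 FPKM in the LPS libraries, against 1.47 to 54.4 FPKM in the others, was that of 1 gene, Camp. Without Camp the list went from 4.95 FPKM with vehicle to 0.688 FPKM with LPS in wild-type BMDMs and from 9.69 to 2.49 FPKM in those labelled AMPKα1-/-, and Ly6g was at 0 in 31 libraries. Single libraries weigh on these vehicle means. The whole list summed to 11.8, 2.30 and 2.63 FPKM in the wild-type vehicle libraries. In those labelled AMPKα1-/- it summed to 17.4, 12.6 and 2.70 FPKM. The fibroblast and endothelial markers, 4 of 6 with such a mean, summed to 21.1 to 63.2 FPKM with LPS and 1.32 to 22.1 FPKM otherwise, mostly in Kdr. Without Kdr they were at 8.99 FPKM with vehicle and 9.57 FPKM with LPS in wild-type BMDMs, and at 1.99 and 4.76 FPKM in those labelled AMPKα1-/-. None of the 9 T and NK cell markers had a mean of 1 FPKM, and their sum was at most 1.24 FPKM. Their part in the receptor levels was not tested.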

How the data were processed

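Total RNA of 35 BMDM libraries was sequenced, and the authors deposited 1 FPKM value per Ensembl gene and library. The submitters' processing notes name Bowtie2 2.2.3, TopHat2 2.0.12, HTSeq 0.6.1, DESeq2 and the GRCm38 (mm10) build, without roles. Neither annotation nor strand setting was given in the sources used here. Gene symbols and positions came from GENCODE (46488 of 47069 identifiers matched) and promoter windows from RefSeq. FPKM was used as log2(FPKM + 1). Genes with a mean of at least 1 FPKM were fitted with limma 3.58.1 (R 4.3.3), 1 mean per group and a trended prior spread, with Benjamini-Hochberg adjustment over 11354 genes and a threshold of 0.05. The fit was tested on simulated data. Beyond the receptors, the text names checks, listed genes with the largest called differences and the 2 genes most like each receptor. Some genes that these rules name are not reported here. The receptors, lists and motifs were chosen with earlier results of these data known. Depth was read from whole-fragment steps: 55.3% to 63.9% of the values under 10 fragments were whole within 0.001. Alternatives were other pseudocounts, filters, scalings, spreads, a replicate block and each library left out.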

Additional observations from a re-analysis of the deposited data

Results flagged for a closer look

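On the log2 scale, the effect of Dex with LPS minus that without it passed the threshold of limma's test of the difference for Ccrl2 (-2.65 in wild-type BMDMs and -3.14 in those labelled AMPKα1-/-) and Cx3cr1 (2.56 and 2.33). It also passed for Ccr7 (-5.12 and -5.15), but Ccr7 was at 0 to 8 fragments without LPS, where no fall with Dex could appear, so that these values restate its fall from LPS. For Ccr2 it passed in the BMDMs labelled AMPKα1-/- (1.94), where the low level with LPS alone set a difference of at least 1.33.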

How the results depend on the processing

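Over 6490 recomputed log2 differences of the receptors, none of the called ones changed sign, and 60, in 16 of 150 results, changed side of the threshold. Many of the 6490 left out a library of a group that was not compared, or changed only how the spread was taken. Such settings can move the adjusted p but not the difference, so these counts overstate how far the differences were put to the test. With a mean of at least 5 FPKM, Ccr1 and Ccr2 are not tested, which lowers the counts of receptors called. The shares of all genes given above belong to a mean of at least 1 FPKM, so no counts are set beside them here. With only the groups compared, Cx3cr1 was called between the genotypes with Dex (0.86, adjusted p = 0.0345). The cause was not tested. Without LPS replicate 2, the LPS differences in wild-type BMDMs were 0.74 for Ccr1 and -1.39 for Ccr2, where the spread of the single library left is taken from all groups. With a pseudocount of 0.1, the rise of Cxcr4 with Dex missed the threshold in both genotypes (adjusted p = 0.168 and 0.140).

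The replicate numbers were not taken to pair the libraries, since no label ties a library to a mouse and not every same-numbered pair deviated together. The correlation of deviations was above 0.1 in 25 of 40 wild-type pairs and 29 of 45 AMPKα1-/- pairs (medians 0.28 and 0.22, lowest -0.47 and -0.49). Yet 14 of 17 and 14 of 18 libraries deviated most like their own number. Any effect shared by a replicate number thus stays in the spread of the main fit, and calls near the threshold depend on this choice. The replicate number as a block added calls for Cx3cr1 in wild-type BMDMs (-0.96, adjusted p = 0.0117 with LPS, and -0.71, adjusted p = 0.0322 with LPS + Dex against vehicle). It also added calls for Ccr1 in those labelled AMPKα1-/- (0.55, adjusted p = 0.0108 with LPS, and -0.62, adjusted p = 0.0138 for DAMPs + Dex against DAMPs). No other call of a receptor changed. The share of all genes called with the block is not given here, so the added calls are not read as particular to the receptors.

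Over all genes, with only the groups compared, the calls fell from 3871 to 2065 for LPS + Dex against LPS and from 228 to 1 for DAMPs in wild-type BMDMs, and between the genotypes from 49 to 19 with vehicle, 87 to 3 with LPS, 76 to 7 with LPS + Dex, 83 to 11 with DAMPs and 120 to 35 with DAMPs + Dex. Without a filter they rose from 49 to 92 with vehicle, 87 to 450 with LPS and 76 to 146 with LPS + Dex. Centring all libraries on one median moved the share of higher calls with LPS from 35.7% to 46.3% in wild-type and from 31.4% to 49.0% in AMPKα1-/- BMDMs, and with LPS + Dex against vehicle from 31.7% to 50.3% and from 29.0% to 50.9%. Depth limits Ccr7 without LPS, at 0 to 8 fragments, and Cxcr4 with LPS.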
